A study of Mus musculus with 4 samples.

Results

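Cd3e, Cd3d, Cd3g and Cd247 encode the CD3 epsilon, delta, gamma and zeta chains, and Trdc, Trgc1, Trgc2 and Trgc4 encode constant regions of the T cell receptor (TCR) delta and gamma chains. Accessible chromatin around these 8 genes was compared between fetal γδ thymocytes with and without the transcription factor c-Maf. Peaks of 4 libraries on chromosomes 1 to 19 and X that overlapped by at least 1 bp were merged into regions, and a region belonged to one of the 8 genes when that gene was the nearest protein-coding gene or TR constant gene in RefSeq (GRCm38), within 100 kb. The rule gave 144 of the 171490 regions of the genome, holding 464 peaks. Given the genes, regions were assigned to them by position only, not by the strength of a peak or its genotype.

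A γδ TCR pairs a gamma with a delta chain, each assembled by joining variable (V), joining (J) and, for delta, diversity (D) segments and splicing the result to a constant region. In general, CD3 chains carry TCRs to the cell surface and hold the cytoplasmic motifs through which they signal. The zeta chain has more of these motifs than any other. Cd3e, Cd3d and Cd3g lie side by side on chromosome 9. Trdc lies inside the TCR alpha locus on chromosome 14, Cd247 lies on chromosome 1, and the gamma genes form a string of cassettes on chromosome 13.

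Omni-ATAC-seq, an assay that marks open chromatin by where Tn5 transposase can insert, was run on immature γδ T cells sorted from fetal mouse thymus as CD4- CD8- TCRγδ+ CD3e+ CD24+ CD45RBlo. The control group (WT, 2 libraries) came from Maf+/+ Il7rCre fetuses and the deleted group (KO, 2 libraries) from Maf fl/fl Il7rCre fetuses, so both carried Cre driven by Il7r, a gene of early lymphoid cells. The fetuses, backcrossed to C57Bl/6 for 5 generations and taken at embryonic day 17 to 18, were pooled before sorting. Whether replicate libraries stand for separate pools is not stated in the labels, so their spread, on which each p-value rests, may be only technical.

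The 4 lists held 102718 and 132179 peaks in WT 1 and WT 2, and 130935 and 120141 in KO 1 and KO 2, covering 20.6 to 29.5 Mb. The background pileup most common under peaks was 1.57 and 1.38 in WT and 0.877 and 0.758 in KO, which did not overlap between the genotypes, and its part in the results below was not tested. On the Maf gene body (chromosome 8, 115703253 to 115706894), the best −log10 q of a peak was 15.0 in WT 1, 15.9 in WT 2, 3.17 in KO 1 and 3.06 in KO 2. All 7 of the CD3 and γδ constant genes used to check the sort (Cd247 was not among them) had a gene end with a peak at most 1 kb away in every library. Of 8 genes of αβ thymocytes, 5 did in every library (Cd4, Cd8a, Cd8b1, Ptcra and Rag1), and Trac, Trbc1 and Trbc2 did in none. Of 3 B cell and 4 myeloid genes 2 each did in every library, with none at Pax5, Csf3r or Mpo, and of 3 erythroid genes 1 did in WT 1, WT 2 and KO 2 and 2 in KO 1. The share of all genes with a peak this near a gene end was not determined. These counts therefore do not show which cells the sort held. An accessible gene end does not show that the gene is expressed, and the part of other cell types in the results was not tested.

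The promoters of the 4 CD3 genes are shown because each lay under a peak in all 4 libraries. They run 5′ to 3′ on the strand of the gene, from 250 bases before to 50 bases from the gene start on (RefSeq, GRCm38.p6), and the capitals mark matches to 7 short motifs. The Cd3e promoter is chr9:45009562-45009861 (minus strand), that of Cd3d chr9:44981536-44981835 (plus strand), that of Cd3g chr9:44980382-44980681 (minus strand) and that of Cd247 chr1:165788431-165788730 (plus strand).
Cd3e: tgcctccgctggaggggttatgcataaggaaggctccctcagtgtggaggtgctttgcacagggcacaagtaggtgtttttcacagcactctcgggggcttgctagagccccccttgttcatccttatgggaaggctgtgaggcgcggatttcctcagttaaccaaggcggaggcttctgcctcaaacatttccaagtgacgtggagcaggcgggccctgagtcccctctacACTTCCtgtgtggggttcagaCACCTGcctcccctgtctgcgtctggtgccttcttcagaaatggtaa
Cd3d: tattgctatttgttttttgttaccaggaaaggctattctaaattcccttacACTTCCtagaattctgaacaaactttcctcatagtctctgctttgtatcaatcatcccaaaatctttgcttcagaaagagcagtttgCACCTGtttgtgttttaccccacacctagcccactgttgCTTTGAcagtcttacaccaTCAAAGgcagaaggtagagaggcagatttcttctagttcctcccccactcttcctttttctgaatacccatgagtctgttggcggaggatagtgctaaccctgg
Cd3g: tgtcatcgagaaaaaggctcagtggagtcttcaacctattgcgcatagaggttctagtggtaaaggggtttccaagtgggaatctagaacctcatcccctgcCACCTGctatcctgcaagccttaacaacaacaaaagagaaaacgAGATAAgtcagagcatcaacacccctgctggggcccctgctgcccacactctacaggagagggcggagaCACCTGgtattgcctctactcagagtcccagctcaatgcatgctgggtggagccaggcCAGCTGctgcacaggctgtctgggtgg
Cd247: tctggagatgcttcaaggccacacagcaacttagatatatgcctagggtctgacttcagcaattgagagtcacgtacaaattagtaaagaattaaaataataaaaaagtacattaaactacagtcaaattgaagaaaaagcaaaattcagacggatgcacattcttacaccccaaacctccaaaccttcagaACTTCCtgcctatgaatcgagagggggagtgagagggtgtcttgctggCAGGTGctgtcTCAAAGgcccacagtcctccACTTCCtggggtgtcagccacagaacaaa

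The motifs were searched on both strands, and 0 of the matches overlapped. The E-box CAGGTG, a binding sequence of E proteins, which drive T cell genes, was in 4 of 4 promoters, against 20.2% of the 32851 promoters of the same length in the table. GGAAGT, bound by ETS factors, was in 3 of 4 (Cd3e, Cd3d and Cd247; 23.8% of all promoters) and CTTTGA, bound by TCF1, in 2 of 4 (Cd3d and Cd247; 16.0%). Cd3g alone of the 4 held CAGCTG (16.3% of all promoters) and the GATA sequence AGATAA (11.2%). The RUNX sequence TGTGGT (16.8%) and TGCTGAC, the core bound by MAF factors (4.67%), were in 0 of 4. These are matches of letters within 300 bases and say nothing of binding.

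Peaks stood over these sequences in each library, with summits at nearly the same place except at Cd3d. At Cd3e the peak covered 300 of the 300 bases in every library, and its summit lay 25, 17, 21 and 17 bases before the gene start in WT 1, WT 2, KO 1 and KO 2. The peak of Cd3g covered 217, 251, 241 and 211 bases in the same order, with the summit 18, 18, 10 and 17 bases before the start. At Cd247 it covered 141, 141, 139 and 139 bases, with the summit at 14, 14, 0 and 6 bases after the start. The Cd3d peak covered 144, 157, 144 and 146 bases. Its summits were the most spread of the 4 promoters, 39 and 41 bases before the start in WT, and 7 before and 13 after it in KO.

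Most of the accessible regions of the 8 genes were open in both genotypes. Of the 144 regions, 86 were called in all 4 libraries (59.7%, against 45.9% of all regions), 19 in 3, 12 in 2 and 27 in 1. By gene, the regions called in all 4 were 9 of 13 at Cd3e, 4 of 5 at Cd3d, 1 of 5 at Cd3g, 21 of 30 at Cd247, 25 of 50 at Trdc, 11 of 16 at Trgc1, 7 of 13 at Trgc2 and 8 of 12 at Trgc4. Regions called in fewer libraries had lower best values: the median of the best −log10 q of a region was 28.9 where all 4 libraries called it, 6.46 for 3, 4.67 for 2 and 2.82 for 1. The best is a maximum over the libraries that called the region, which by itself favours this order. Of the 19 regions called in 3 libraries, 10 were missing in WT 1 alone, the library with the fewest peaks (52.6%, against 61.8% of all regions called in 3).

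Regions called in both libraries of 1 genotype and neither of the other were few and weak. There was 1 WT-only region among the 144 (2.07% of all regions were WT-only) and there were 2 KO-only regions (3.1% of all regions). The WT-only region, assigned to Trdc and 6.5 kb past the gene (chromosome 14, 54152611 to 54152796), reached a −log10 q of only 1.41 and 2.75 in WT 1 and WT 2, close to the limit of 1 at which the lists end. One KO-only region lay inside Cd247 (chromosome 1, 165817358 to 165817512), with 5.81 and 3.94 in KO 1 and KO 2. The other lay 18.6 kb past Trgc1 (chromosome 13, 19235173 to 19235266), with 3.03 and 3.66. Beside 4.67, the median best value of the regions called in 2 libraries, the best value was higher for the Cd247 region and lower for the others.

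The shared regions were narrow and had their summits at nearly the same base in each library. The median width of the 86 regions was 284.5 bp, and the summits of the 4 libraries spread over a median of 39 bp. The median stack height at their summits, as the authors' fold and −log10 p imply it, was 28 and 49.5 in WT 1 and WT 2, and 31 and 33.5 in KO 1 and KO 2, so WT 2 was the deepest of the 4 at these genes and the genotypes overlapped. Strength was compared by the authors' fold enrichment of the summit over its local background, as the percentile of the region among the 78650 regions that all 4 libraries called. The mean of this percentile over the 4 libraries had a median of 32.1 for the 11 shared regions within 1 kb of a gene start, 32.3 for the other 26 inside a gene and 37.7 for the 49 outside. Rank correlated between libraries over the 86 regions with a Pearson's r of 0.863 between the WT libraries, 0.911 between the KO libraries and 0.835 to 0.876 across genotypes, as a description of regions that share loci.

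Among the CD3 genes, the region at the start of Cd3g had the highest mean rank of all 86. The Cd3g region (chromosome 9, 44980309 to 44980632), which spans the gene start, had a fold of 24, 24.5, 26.3 and 25.4 in WT 1, WT 2, KO 1 and KO 2, and percentiles of 95.2, 89.8, 92.7 and 89.4. The genotypes overlapped, and the WT minus KO difference of normal scores of the rank was 0.12 (SE 0.26, limma adjusted p = 0.972). The other 4 regions of Cd3g were called in 1, 1, 2 and 3 libraries.

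At Cd3d, which lies head to head with Cd3g, the strongest region was at the far end of the gene and not at its start. It spanned 44985892 to 44986801, the last part of the gene, with a fold of 13.3, 12.2, 12.4 and 13.2, and covered 549 and 780 bp in WT and 906 and 902 bp in KO. The widths did not overlap between the genotypes, but the adjusted p was 0.796. The region at the Cd3d start (44981679 to 44981865) had a fold of 7.54 and 7.32 in WT and 6.16 and 7.36 in KO, and percentiles of 52.2, 28.8, 22.5 and 25.0. Both WT percentiles stood above both KO percentiles, with WT 2 close to KO 2, and the adjusted p was 0.751 (difference 0.46, SE 0.28).

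Cd3e had 9 regions called in all 4 libraries, spread from past its 3′ end to 13.3 kb before its start. The start region (45009281 to 45009936) had a fold of 10.4, 9.79, 11.1 and 11.9 in WT 1, WT 2, KO 1 and KO 2, with overlapping percentiles of 68.8, 46.0, 57.0 and 53.4. The highest region by mean percentile was the farthest upstream (45022909 to 45023084, 13.3 kb before the start), with percentiles of 76.7, 71.1, 78.3 and 69.5. The region with the largest difference lay 6.2 kb before the start (45015813 to 45016179), with a fold of 12.3 and 18.7 in WT and 11.6 and 12.3 in KO, and percentiles of 76.1 and 79.5 against 59.4 and 55.5. Its peaks were also wider in both WT libraries, 283 and 342 bp against 196 and 215 bp. Neither passed the test across the genome: the rank difference was 0.58 (SE 0.23, adjusted p = 0.562), and the width difference 0.65 on the log2 scale (SE 0.18, adjusted p = 0.554).

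Cd247, the longest of the 8 genes at 91202 bp, had all of its 30 regions inside the gene body. RefSeq's gene body begins upstream of the start used for the promoter. The region at that start (165788590 to 165788810) was its highest, with a fold of 14.7, 16.0, 13.6 and 18.9 and percentiles of 82.8, 72.6, 68.0 and 77.9, which overlapped between the genotypes (adjusted p = 0.953). The largest difference among all 86 regions was also at Cd247, 13.3 kb after the start (165801981 to 165802379). There the fold was 8.52 and 12.8 in WT 1 and WT 2, and 4.48 and 5.78 in KO 1 and KO 2. The percentile was 58.7 and 61.1 in WT against 7.54 and 13.8 in KO, and the peaks covered 0.342 and 0.355 kb against 0.065 and 0.159 kb. Both WT libraries stood well above both KO libraries on each measure.

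The difference at this region did not pass the test across the genome. On normal scores of the rank it was 1.52 (SE 0.25, unadjusted p = 0.000469, limma adjusted p = 0.27), which placed it 136th of 78650 regions by p. On the log2 width it was 1.83 (SE 0.39, adjusted p = 0.447), or 3.55 times as wide in WT. The summit stack height was 36 and 88 in WT and 11 and 18 in KO, while the local background was 3.34 and 5.93 against 1.68 and 2.29. The next region along the gene (165803092 to 165803508, 14.4 kb after the start) had a similar background, 3.53 and 6.30 against 1.72 and 2.43, and percentiles of 82.5 and 48.6 in WT and 63.6 and 69.9 in KO, which overlapped.

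Of the 21 regions of Cd247 called in all 4 libraries, 7 had both WT percentiles above both KO percentiles (33.3%, against 18.1% of all regions) and 2 the reverse (9.52%, against 18.6%). A region 74.7 kb after the start (165863357 to 165864280) had percentiles of 53.4 and 50.3 in WT and 26.6 and 9.12 in KO (adjusted p = 0.408). In the other direction, a region 0.729 kb after the start (165789410 to 165789708) had 1.81 and 15.7 in WT and 47.8 and 18.9 in KO (adjusted p = 0.553). Another, 76.6 kb after the start (165865254 to 165865411), which also lies in the neighbouring gene Pou2f1, had 2.61 and 0.309 against 3.65 and 40.3, so its difference rested on KO 2 (adjusted p = 0.549).

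**Figure D1:**
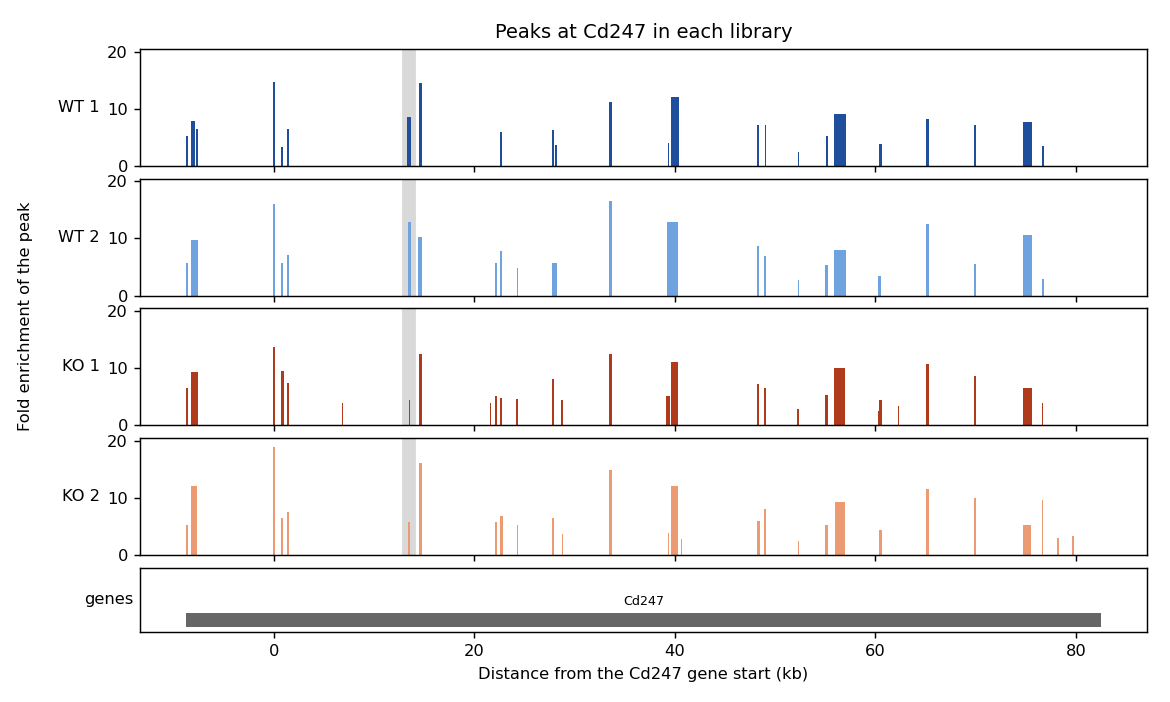
Peaks assigned to Cd247 in each library, drawn at their position in kb from the gene start (x axis), with the authors' fold enrichment as height (y axis, from 0). The grey band marks the region 13.3 kb after the start, where the fold was 8.52 and 12.8 in WT but 4.48 and 5.78 in KO, and the bar at the bottom is the RefSeq gene body.

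Trdc had the most regions of the 8 genes, 50, and 0 of them inside the gene. They lay on both sides of it, from the delta segments upstream to the alpha joining segments downstream, up to 91.8 kb away. The highest of them by mean percentile was 89.6 kb before the gene (chromosome 14, 54053015 to 54053294), with a fold of 17.9 and 25.7 in WT and 18.5 and 24 in KO. Its percentiles were 88.8 and 91.3 in WT and 81.5 and 87.5 in KO, so both WT libraries were higher by a small margin (adjusted p = 0.876). The interval between Trdj2 and Trdc, which is known to hold the delta enhancer, had 4 regions, all called in all 4 libraries. In 3 of them the percentiles of the genotypes overlapped: 54.6 and 31.3 in WT and 46.6 and 15.1 in KO at 5.38 kb before the gene (54137136 to 54137470), 50.1 and 14.3 against 36.6 and 23.2 at 3.92 kb (54138721 to 54138931), and 28.5 and 9.07 against 8.59 and 14.6 at 3.02 kb, the region nearest to the start (54139516 to 54139835). At 4.27 kb (54138123 to 54138581) they were 58.3 and 49.4 in WT and 43.1 and 35.1 in KO, without overlap (adjusted p = 0.775). The fold at these 4 regions lay between 4.66 and 10.5.

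The largest difference at Trdc without overlap was toward the KO. It lay 69.6 kb before the gene (54073011 to 54073217), with a fold of 5.45 and 7.30 in WT and 10.5 and 11.6 in KO, and percentiles of 30.5 and 28.7 against 54.0 and 52.3. The rank difference was −0.62 (SE 0.23, adjusted p = 0.524). The nearby region that overlaps the variable segment Trdv4 (54074774 to 54075062) showed no such order, with percentiles of 72.6 and 74.5 in WT and 76.1 and 70.6 in KO.

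**Figure D2:**
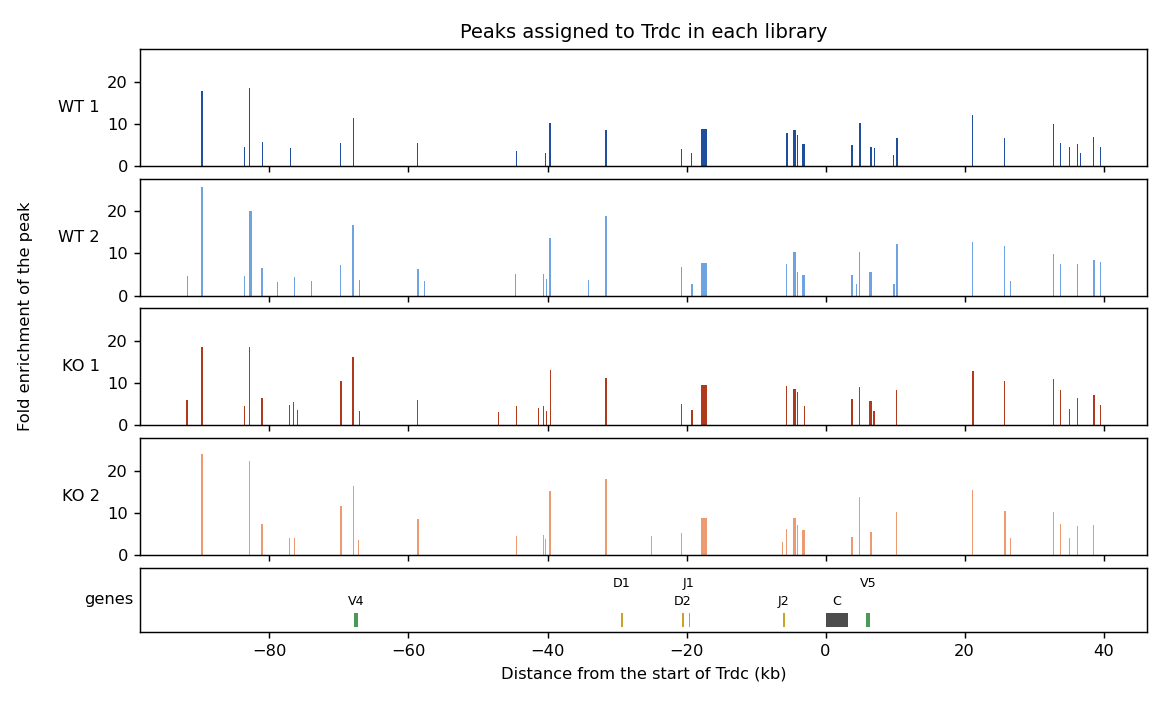
Peaks assigned to Trdc in each library, at their distance in kb from the start of Trdc (x axis), with the authors' fold enrichment as height (y axis, from 0), above the V, D and J segments and the constant gene (C). The peaks 89.6 kb before the gene have a fold of 17.9 to 25.7, and no peak lies on the gene itself.

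The gamma constant genes had 41 regions, and all 4 libraries called 26 of them. In 2 of the 3 genes the strongest region lay past the 3′ end, where enhancers of the gamma cassettes are known to lie. At Trgc1 it was 2.6 kb past the gene (chromosome 13, 19219218 to 19220027), with a fold of 17.5 and 17.4 in WT and 19.9 and 20.9 in KO. The percentiles, 88.1 and 76.5 against 84.1 and 82.2, overlapped (adjusted p = 0.998). At Trgc2, which is on the opposite strand, it was 4.03 kb past the gene (19300290 to 19301027), with a fold of 17.6, 15.0, 16.1 and 17.3 and percentiles of 88.3, 69.2, 75.8 and 73.7. Here too the genotypes overlapped (adjusted p = 0.953). At Trgc4 the strongest region overlapped the variable segment Trgv2, 7.24 kb before the gene (19336880 to 19337318), with a nearly equal fold of 14.5, 14, 14.3 and 14.5 (percentiles 82.4, 65.8, 70.3 and 64.7).

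The starts of the gamma constant genes were weaker. The region nearest to the Trgc1 start (19214261 to 19214426) was missing in WT 1 and had a −log10 q of 6.03, 5.64 and 6.43 in the other libraries. The one nearest to the Trgc2 start (19307221 to 19307355) was called in WT 1 and KO 2 alone, at 1.47 and 2.57. The one nearest to the Trgc4 start, inside the gene at 0.91 kb (19345468 to 19346024), was called in all 4, with a fold of 8.14, 7.92, 8.06 and 7.91. The gamma constant genes are related copies, and how alike their sequences are was not examined. Trgc4 is 7786 bp long, beside 2516 bp for Trgc1 and 2492 bp for Trgc2. How reads that fit more than 1 copy were treated is not given in the sources used here, so values on the genes themselves are uncertain.

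On normal scores of the rank, the largest difference at the gamma genes lay 0.355 kb before Trgc1 (19213345 to 19213748), although other regions differed by more percentile points. Its fold was 4.54 and 4.55 in WT and 3.26 and 3.21 in KO, with percentiles of 17.2 and 6.79 against 0.866 and 0.491, so it was a weak region in all 4 libraries. The rank difference was 1.26 (SE 0.28, adjusted p = 0.331). At Trgc4 the largest on this scale was inside the gene at 5.59 kb (19350153 to 19350489), with a fold of 5.24 and 6.96 in WT and 5.07 and 3.81 in KO (difference 1.00, SE 0.34, adjusted p = 0.481). At Trgc2, the percentiles of the genotypes overlapped in each of the 7 regions called in all 4 libraries.

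Peaks overlapped most variable segments and no joining segment. The J and D segments are far shorter than the V segments, so these counts cannot be set against each other. The share of other stretches of similar length with a peak was not determined, so the counts have no background. All 7 gamma V segments in the table were overlapped by a region of the genome, 6 of them by one called in all 4 libraries, and 0 of the 4 gamma J segments were. On the delta side 5 of 6 V segments, 1 of 2 D segments (Trdd2) and 0 of 2 J segments were overlapped by a region of the genome. Among these V segments, only Trdv4 and Trdv5 were overlapped by a region assigned to Trdc. The V segment without a region, Trdv3, is a pseudogene. The region over Trgv4 (19184739 to 19185136) had a fold of 11.4, 10.4, 14.1 and 12.5 in WT 1, WT 2, KO 1 and KO 2, and the main region over Trgv1 (19339683 to 19340078) had 10.8, 9.61, 11.3 and 10.5. At Trgv4 both KO folds were above both WT folds, but the percentiles overlapped (73.1 and 49 in WT, 69.7 and 56.2 in KO), as they did at Trgv1 (70.7 and 44.5 against 58.3 and 46.7). Of 2 regions over Trgv6, the first (19190131 to 19190445) had a fold of 10.8 and 8.68 in WT and 8.09 and 7.08 in KO. Its percentiles in WT 2 and KO 1 were about the same, 38.6 and 39.0. The second (19190670 to 19191085) had an overlapping fold, 5.45 and 4.12 in WT and 5.50 and 5.41 in KO. A region over Trgv5 (19192492 to 19192876) was missing in WT 1, and its −log10 q in WT 2, KO 1 and KO 2 was 2.24, 6.21 and 6.77.

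**Figure D3:**
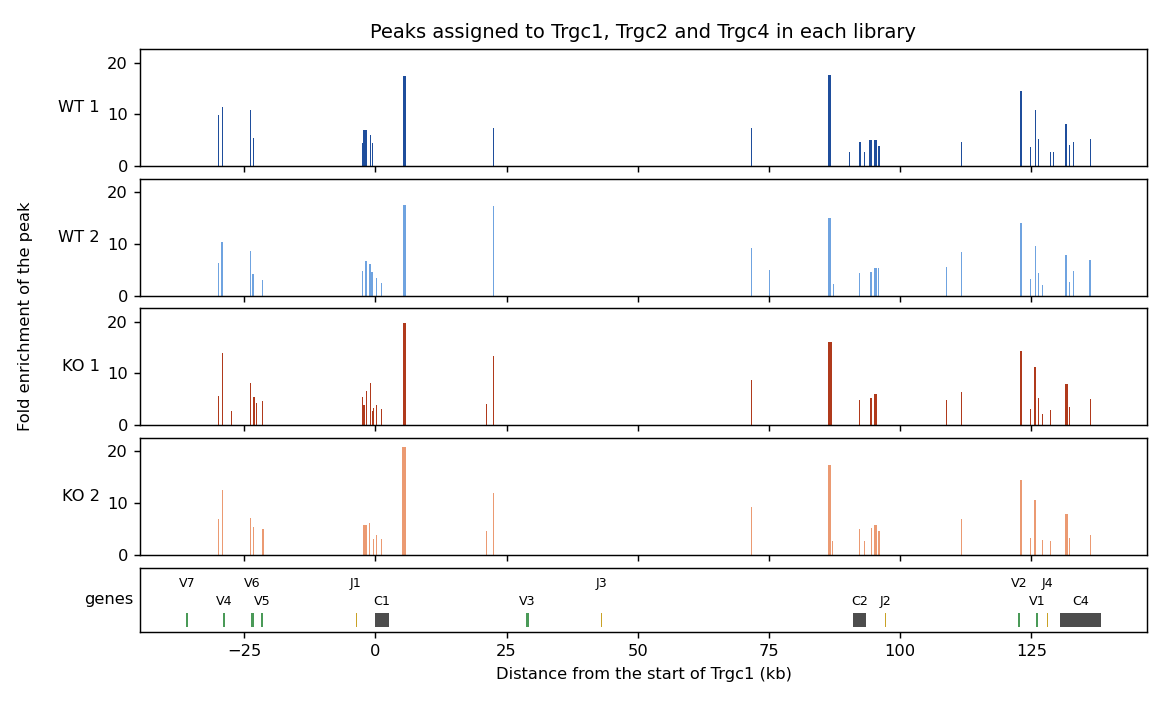
Peaks assigned to Trgc1, Trgc2 and Trgc4 in each library, at their distance in kb from the start of Trgc1 (x axis), with the authors' fold enrichment as height (y axis, from 0), above the V and J segments and the constant genes (C1, C2, C4). The tall peaks past Trgc1 and Trgc2 reach a fold of 15.0 to 20.9 in all 4 libraries, and no peak lies on a J segment.

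Over the 86 regions called in all 4 libraries, 0 passed an adjusted p of 0.05 in limma for rank or for width, as did 0% of the 78650 regions of the genome. At an unadjusted p under 0.05 there were 9 for rank, 6 of them higher in WT (8.58% of all regions passed, in either direction), and 5 for width, 4 of them wider in WT (6.66%). With the replicate number as a block, these counts were 13 (10.5% of all regions) for rank and 6 (8.04%) for width. Without overlap between genotypes, 20 regions ranked higher in both WT libraries (23.3%, against 18.1% of all regions) and 4 in both KO libraries (4.65%, against 18.6%). For width, 19 were wider in both WT libraries and 12 in both KO libraries (16.6% of all regions each way). With 2 libraries against 2, an exact permutation test over libraries cannot go below p = 0.33, and a difference that misses the threshold is not shown to be absent.

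The mean percentile was higher in WT at 67 of the 86 regions and in KO at 19 (50.4% of all regions were higher in WT), with a median difference of 4.33 points against 0.0456 over the genome. This count rested on 1 library. Without WT 1 it was 44 of 96 regions, with 52 higher in KO and a median difference of −0.502 points. The median percentile of the 86 regions was 49 in WT 1, 31.8 in WT 2, 39.0 in KO 1 and 25.7 in KO 2, so the genotypes overlapped. By gene, the regions higher in WT were 6 of 9 at Cd3e, 3 of 4 at Cd3d, 1 of 1 at Cd3g, 13 of 21 at Cd247, 20 of 25 at Trdc, 9 of 11 at Trgc1, 7 of 7 at Trgc2 and 8 of 8 at Trgc4. At Trgc2 the medians, 22.9 and 12.6 in WT and 21.7 and 12 in KO, again set WT 1 apart from WT 2 more than WT from KO. Regions of 1 locus share libraries and position and are not independent replicates.

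**Figure D4:**
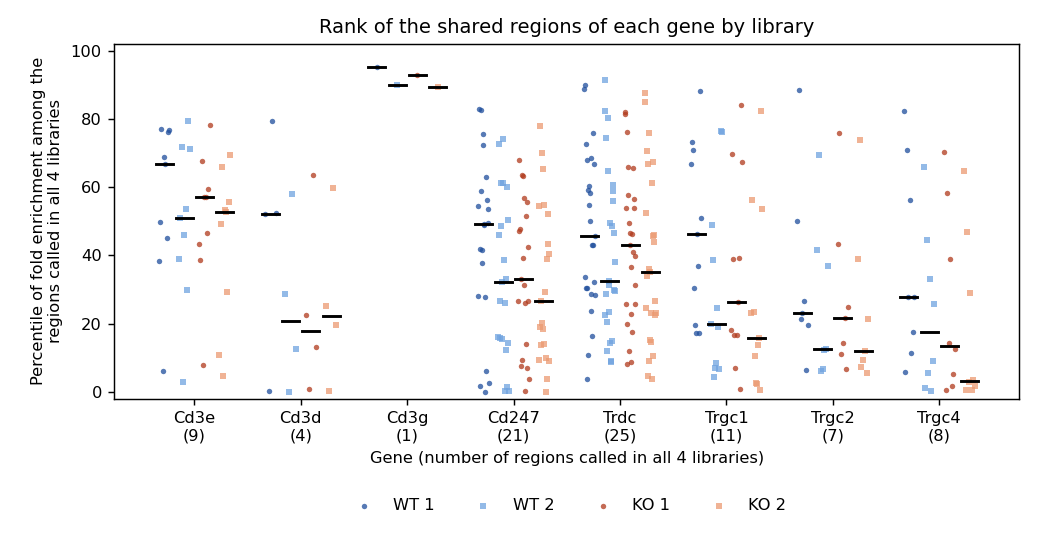
Percentile of fold enrichment of each region called in all 4 libraries (y axis, among the 78650 such regions of the genome), by gene and library (x axis, with the number of regions in brackets). Each point is a region and each black line the median of a library: WT 1 has the highest median at each of the 8 genes, and WT 2 stands above both KO libraries at Trgc4 only (17.4 against 13.3 and 3.16).

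**Figure D5:**
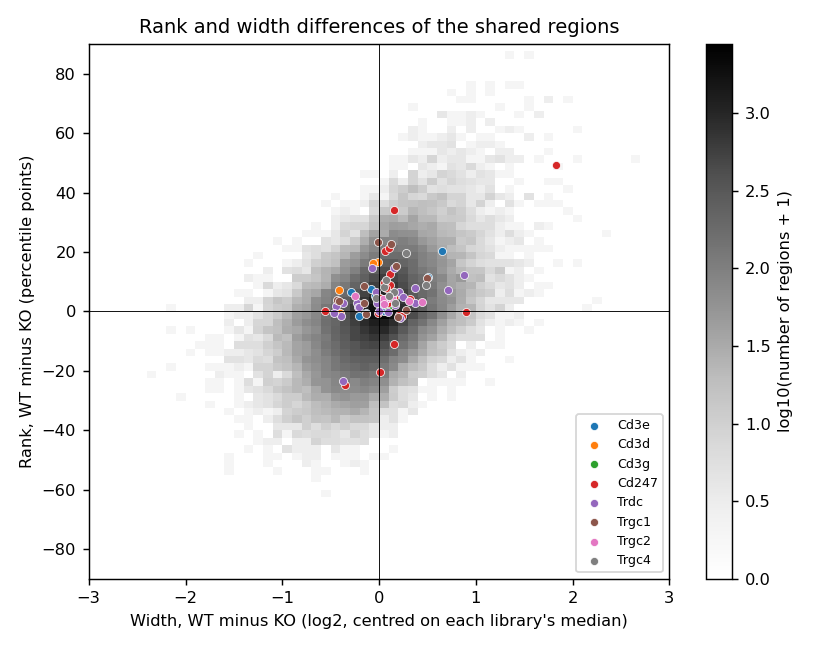
Rank difference (WT minus KO, percentile points, y axis) against width difference (WT minus KO, log2 after centring on each library's median, x axis) for the 86 regions of the 8 genes (coloured points), over the density of all 78650 regions called in all 4 libraries (grey, log10 scale). Most coloured points lie inside the dense part of the genome, and the Cd247 region at a width difference of 1.83 and a rank difference of 49.3 points lies at its edge.

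The proximal signalling genes that act on the same receptor had calls near the genome's background. The 17 genes (Lck, Fyn, Zap70, Syk, Lat, Lcp2, Plcg1, Grap2, Csk, Ptprc, Cd2, Cd5, Cd28, Trat1, Ptpn22, Ubash3a and Sla) had 453 regions, 12 of them WT-only and 13 KO-only (2.07% and 3.1% of all regions). The WT-only regions lay at 7 genes (3 at Fyn, 2 each at Grap2, Sla and Syk, and 1 each at Cd2, Lck and Lcp2), and the KO-only regions at 6 (3 each at Ptprc and Trat1, 2 each at Csk, Fyn and Ubash3a, and 1 at Grap2). The strongest was WT-only, inside the adaptor gene Grap2 (chromosome 15, 80630842 to 80631098), with a −log10 q of 10.2 and 24.8. Of the 231 regions called in all 4 libraries, 0 passed the limma test of rank in either direction, and without overlap 40 were higher in WT (17.3%, against 18.1% of all regions) and 33 in KO (14.3%, against 18.6%). The αβ TCR chain genes Trac, Trbc1, Trbc2 and Ptcra had 22 regions, with 0 WT-only and 1 KO-only, the latter 9437 bp from Trbc2 (chromosome 6, 41557618 to 41557722), with a −log10 q of 11.1 and 12.9. Of their 13 regions called in all 4 libraries, 0 passed the limma test of rank, and 5 ranked higher in both WT libraries (38.5%, against 18.1% of all regions) and 1 in both KO libraries (7.69%, against 18.6%). Their median difference was 6.2 points, beside 4.33 points for the 8 genes above. All 4 libraries called 5 of 8 regions at Trac, 2 of 3 at Trbc1 and 6 of 8 at Trbc2. At Ptcra they called 0 of 3, although only Ptcra of these genes had a peak at most 1 kb from a gene end.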

How the data were processed

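Omni-ATAC-seq peak lists of 4 libraries were used (WT 1, WT 2, KO 1, KO 2). Per the submitters' processing notes, the tools were MACS2 2.1.1, Bowtie2 2.3.4.1 and deepTools 3.1.2, beside bedtools, Picard, cutadapt and Trim Galore, on GRCm38 (mm10). How Tn5 offsets, duplicates and reads with several matches were handled is not given in the sources used here. Peaks had been called per library. Each deposited peak has a score, equal to its −log10 q times 10 with decimals dropped. It also has the authors' fold enrichment (the ratio of summit to local background), −log10 p and −log10 q, which served here to rank, filter and describe peaks inside 1 list. Every list ended at a −log10 q of 1.

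Peaks overlapping by 1 bp were merged with Python 3.11.15 and pandas 2.3.3. Read totals were not analysed here, so depth is known only through the number of peaks and the pileup. Summit pileup and local background were solved from the fold and −log10 p under a Poisson model: all 464 member peaks gave a whole pileup, within 0.01 of the log10 p. For the regions called in all 4 libraries, normal scores of the rank of the fold, and log2 covered base pairs centred on the library median, were tested with limma 3.58.1 (R 4.3.3), with genotype as the only term and Benjamini-Hochberg adjustment over all 78650 regions. The script was tested on simulated data. Starts of constant genes were taken as the end nearest to their J segment. Promoters were matched for 4 of the 8 genes in the RefSeq table.

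The genes and lists were chosen with earlier results of these data known. Of the lists, 2 genes are not reported here and were left out of the counts. Named regions were, for each gene, the one nearest to the start, the highest by mean rank, each WT-only or KO-only region and the largest rank difference without overlap. Further regions, the pileups, the V, D and J overlaps, the 7 motifs and the count of regions with a higher mean rank in WT were chosen after the values were seen. Alternatives were a −log10 q of at least 5, coverage of at least 0.5 of a region, equal numbers of peaks, a distance of 20 kb, ranks by −log10 q or by width, a replicate block, and leaving out each library.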

Additional observations from a re-analysis of the deposited data

How the results depend on the processing

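The rank test called 0 of the regions under every alternative run, and the width test called 0 except without KO replicate 2, where it called 1, the Cd247 region 13.3 kb after the start (adjusted p = 2.4e-06, 0 to 1 called over the left-out libraries). In that fit limma pooled the spread completely and the lone KO library was assumed to vary like the WT ones. It called 676 regions of the genome, and 238 without KO replicate 1. The rank difference at that Cd247 region had adjusted p-values of 0.253 to 0.62 over 6 alternatives. The count of WT-only regions, 1, became 3 of 144 with at least 0.5 of a region covered (2.27% of all regions). With equal numbers of peaks it was 2 of 113 (2.93%). Over the left-out libraries it ran from 2 of 138 without KO replicate 2 (4.24%) to 8 of 141 without WT replicate 1 (12.3%). That of KO-only regions, 2, became 4 of 110 at a −log10 q of at least 5 (3.18% of all regions). With equal numbers of peaks it was 1 of 113 (2.97%). It ran from 7 of 141 without WT replicate 1 (4.14%) to 13 of 138 without KO replicate 2 (14%). When a library is left out, 1 library decides the call of a genotype. Regions with a higher mean rank in WT, a count added after seeing the data, were 67 of 86. The lowest count over the left-out libraries was 44 of 96 without WT replicate 1 (45.8%, against 48.6% of all regions). The highest count was 77 of 92 without WT replicate 2 (83.7%, against 51.6%). The width difference at the Cd3d start, −0.00995, was 0.0176 by rank of the covered base pairs and ran from −0.0257 to 0.00698 over the left-out libraries, above 0 without WT replicate 1. That at the Trgc4 region inside the gene, 0.284, ran from −0.180 to 0.746, below 0 without WT replicate 2 and without KO replicate 2. The cause was not tested. The remaining 79 of 84 values for 6 single regions kept their direction and their side of the threshold. Some had no value under stricter settings, since fewer regions were then called in all 4 libraries. The replicate numbers are not tied to a batch or pool by the labels, and the deviations of libraries with the same number correlated at 0.106 for rank and 0.0571 for width. With a replicate block the tests again called 0, WT-only and KO-only calls were 1 and 2 as before by construction, and 13 regions for rank and 6 for width had an unadjusted p under 0.05, against 9 and 5 without it. Over all regions the block gave 10.5% and 8.04%, against 8.58% and 6.66%.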

Other observations

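A further gamma constant gene, Trgc3, lies between Trgc1 and Trgc2 and was not among the 8 genes. Its strongest region lay 9135 bp from the gene (chromosome 13, 19272532 to 19273372), with a fold of 20.6 and 20.6 in WT 1 and WT 2 and 23.7 and 29 in KO 1 and KO 2. The percentiles, 92.2 and 83.6 in WT and 89.8 and 93.2 in KO, overlapped. A second region, 19841 bp from the gene (19283238 to 19283460), had a fold of 17.5 and 16.9 in WT and 19 and 26 in KO, with percentiles of 88.2 and 75.1 against 82.5 and 90.1, which overlapped too.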
